A study of Homo sapiens with 47 samples.

Results

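Of the 30911 PTBP1 clusters listed from 1000 cells, 6029 had no cluster within 50 nt on the same strand in the list from 10000000 cells. These 6029 clusters, called absent clusters below, make up 19.5% of the 1000-cell list (exact Clopper-Pearson 95% interval 19.1 to 20.0). The other 24882 are called near clusters and serve as the comparison. The distance counts the unoccupied bases between the nearest ends of a pair of clusters, and the members were chosen by this measured distance alone.

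PTBP1 is an RNA-binding protein of the nucleus with several RNA recognition domains that bind short pyrimidine-rich stretches, typically in introns. Bound beside an exon it often represses inclusion of that exon, and it also takes part in 3′ end processing and in control of RNA stability. In most dividing cells, including embryonic kidney lines, PTBP1 is the main form of the protein, whereas neurons replace it with PTBP2.

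The clusters come from uSpyCLIP-seq, in which ultraviolet light crosslinks a tagged protein to the RNA it touches, SpyCatcher captures the tag through a covalent bond, and the bound RNA fragments are sequenced. All groups used Lenti-X 293T, a human embryonic kidney line kept for lentivirus packaging, as a stable line expressing the protein under study. In the groups used here its cells were irradiated on ice at 400 mJ/cm2, and their RNA was fragmented with RNase I. The series also has unguided groups of both Cas13 proteins without ultraviolet light, which were not used. The series holds 47 libraries in 20 groups, of which 15 groups with 1 site list each were used here.

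The inputs of PTBP1 were 10000000, 100000, 10000 and 1000 cells, each with 2 libraries. RBFOX2, a splicing regulator that binds another motif, had 2 libraries of 10000000 cells. SpyCatcher 1.0 and 2.0 had 1 library for each amount, 20 and 40 µg, and only the names of their lists say that the captured protein was PTBP1. The dead Cas13 proteins dPspCas13b and dRfxCas13d, which bind RNA without cutting it, without guide RNA or with the guides EZH2g1 or EZH2g2, had 3 libraries each. The promoter that drove the tagged proteins, whether the tagged PTBP1 replaced the cell's own and whether a line was 1 clone are not stated in the labels.

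Every list gives positions and strand on hg38 without score or read number, so how many reads stand behind a cluster is unknown. A group has 1 list, which leaves no replicate spread to test against, and no p-value was computed. Intervals are exact 95% binomial intervals that cover counting error only, and neighbouring clusters are not independent. The lists used hold from 59 sites (dPspCas13b with EZH2g1) to 964422 (PTBP1 at 10000000 cells).

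Sequence could be read for the few absent clusters that lie in RefSeq promoter windows of GRCh38.p14, the assembly of hg38, which run from 250 nt before a gene's start to 50 nt after it. There were 26 of them, and 5 were within 50 nt of a cluster in another list. Those 5 are shown first because they recur in at least 1 other list, 5′ to 3′ on the strand of the cluster, with the cluster in capitals and up to 12 nt on each side.
DCAF8, chr1:160261541-160261544, minus strand: ctggcttctaatCTTCatgttggttcat
KDM5A, chr12:389109-389114, minus strand: cccacggggaccCCCCCCcccccccggccg
GSPT1, chr16:11915956-11915958, minus strand: gtgggaggagatCCGctcacacacacg
DLG4, chr17:7217807-7217809, minus strand: agcctcatcgtcTTTgctgtcatcgct
ODC1, chr2:10448315-10448317, minus strand: ttgtcagtccctCCTgtagccgccgcc
DCAF8 encodes a substrate receptor of a ubiquitin ligase, KDM5A a histone demethylase, GSPT1 the translation release factor eRF3a, DLG4 the synaptic scaffold PSD-95 and ODC1 the first enzyme of polyamine synthesis. The DCAF8 cluster lies 208 nt upstream of the divergent gene DCAF8-DT and the KDM5A cluster 238 nt upstream of CCDC77, each on the strand opposite to that neighbour. The letters TCTT, a typical PTBP1 core, run across the edge of the cluster in the DCAF8 and DLG4 stretches.

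Another 4 absent clusters lie just after the start of the gene on its own strand and were near no cluster of any other PTBP1, RBFOX2 or SpyCatcher list. They are shown as examples of the commonest class of absent clusters, 3 nt wide and on the minus strand.
FBXO2, chr1:11654391-11654393, minus strand: ccgccccgggacTCGcgcagcccgca
FNDC5, chr1:32870902-32870904, minus strand: cgggagtcgctgTCCgcggagccgaca
DMXL2, chr15:51622756-51622758, minus strand: tttccgcagctgAGCggcgacccgggc
CD207, chr2:70835792-70835794, minus strand: gtgctcccaggaTAAgggtgagcactc
None of these 4 stretches holds TCTT or CTCT. FBXO2 encodes an F-box protein that recognises glycoproteins, FNDC5 the precursor of irisin, DMXL2 a regulator of the vacuolar proton pump and CD207 the lectin langerin of Langerhans cells.

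In windows of 51 nt centred on the cluster, TCTT was present in 4 of 24 absent clusters (16.7%, 4.74 to 37.4) and in 74 of 121 near clusters of the same promoter windows (61.2%, 51.9 to 69.9). The same letters were present in 16.1% of the middle 51 nt of all 35116 promoter windows. CTCT was present in 2 absent clusters (8.33%, 1.03 to 27.0), 59.5% of near clusters and 21.7% of all windows. TTTCT was found in 8.33%, 31.4% and 7.36% of these sets. GCATG, the RBFOX2 motif, was found in 0 of 24 (which allows a share of up to 14.2%), 4.13% and 3.61%. These motifs were searched on the strand of the cluster, TCTT and TTTCT can overlap, and for all windows the strand of the gene was read. Median content of C and T was 46.1% at absent clusters, 68.6% at near clusters and 49.0% in all windows, while the content of G and C was 65.7%, 52.9% and 58.8%. These values describe promoters only, and most absent clusters lie elsewhere in genes.

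The distance of the absent clusters from the 10000000-cell list had a median of 892 nt, with quartiles of 269 and 4108 nt, and 10% lay more than 32489 nt away. By distance, 579 lay at up to 100 nt, 654 more at up to 200, 1930 at up to 1000, 1827 at up to 10000, 1013 at up to 1000000 nt and 26 beyond that. At the edge of the rule the list was smooth, with 149 near clusters at 41 to 50 nt and 148 absent clusters at 51 to 60 nt. Of the near clusters, 22090 shared at least 1 base with a 10000000-cell cluster.

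The other 7 lists of PTBP1, RBFOX2 and SpyCatcher also held clusters without a 10000000-cell cluster within 50 nt. That applied to 28343 clusters at 10000 cells (11.4%), to 155322 at 100000 cells (20.2%), to 8.41% of RBFOX2 clusters and to between 7.75% and 10.5% of clusters in the 4 SpyCatcher lists. The share at 1000 cells was therefore above that at 10000 cells and close to that at 100000 cells, with no order by input.

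Few absent clusters recurred in other lists. Of the 6029, 1274 (21.1%) had a cluster within 50 nt on the same strand in at least 1 of 7 other lists, those of PTBP1 at 100000 and 10000 cells, RBFOX2 and the 4 SpyCatcher groups. Over all 1000-cell clusters that share was 82.0%, and over near clusters 96.8%. Clusters with such a neighbour are called supported. At least 2 lists supported 72.7% of all 1000-cell clusters, whereas among absent clusters 863 had support in 1 list, 276 in 2 lists and 135 in 3 or more.

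The 100000-cell list gave the most support, to 975 (16.2%, background over all 1000-cell clusters 80.2%). The 10000-cell list, nearest in input, supported 435 (7.22%, background 70.5%). Support from RBFOX2 was found for 221 (3.67%, background 60.8%), a different protein at the highest input.

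SpyCatcher 1.0 at 20 and 40 µg supported 78 and 80 absent clusters, against backgrounds of 26.0% and 27.7%. SpyCatcher 2.0 supported 85 and 88, against 32.7% and 34.5%. In each of the 7 lists the absent clusters were supported less often than the background. That background includes the absent clusters themselves. Because the rule keeps only clusters without a neighbour in the largest PTBP1 list, lower support in other lists can follow from the selection. On the opposite strand, each of these lists had a site near at most 4 absent clusters.

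Sites of the Cas13 proteins were almost never near. The unguided lists had a site near 11 (0.182%, dPspCas13b, background 2.58%) and 5 (0.0829%, dRfxCas13d, background 1.04%) of the absent clusters. With EZH2g1 the numbers were 0 and 2 (0.0332%), against 0.00647% and 0.142%. With EZH2g2 they were 2 (0.0332%) and 5 (0.0829%, 0.0269 to 0.193), against 0.201% and 0.139%. The interval of dRfxCas13d with EZH2g2 thus includes its background. A count of 0 of 6029 allows a share of up to 0.0612%, the upper end of its interval.

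Support fell with distance from the 10000000-cell list up to 1000000 nt. In the same distance classes it was 44.2% at up to 100 nt, 34.1% at up to 200, 23.8% at up to 1000, 13.6% at up to 10000 and 8.39% at up to 1000000 nt, and 3 of the 26 beyond that were supported (11.5%, 2.45 to 30.2). Just inside the rule's limit, at 41 to 50 nt, it was 65.8% (57.6 to 73.3), and just outside, at 51 to 60 nt, 49.3% (41.0 to 57.7), and these intervals touch. Where support had to share at least 1 base it fell to 9.95%, and without the 100000-cell list to 11.1%.

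The absent clusters were narrow. Their median width was 4 nt and the widest measured 26 nt, against 5 and 493 nt for near clusters. The smallest width in the list, 3 nt, was held by 2558 (42.4%, 41.2 to 43.7) absent and 25.6% of near clusters. Only 39 absent clusters (0.647%) reached 10 nt, against 6.41% of near clusters. Clusters without a 10000000-cell cluster in the 10000-cell list were also narrow, with 32.8% of 3 nt and 0.843% of at least 10 nt, and in the 100000-cell list the values were 29.5% and 2.87%. The share of absent clusters in the 1000-cell list therefore went from 28.7% at 3 nt to 2.39% over 9 nt, beside 19.5% for all widths.

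Most absent clusters lay on the minus strand, 4531 of 6029 (75.2%, 74.0 to 76.2). Near clusters had 67.9% there, clusters absent at 10000000 cells from the 10000-cell list 65.2%, those from the 100000-cell list 53.6%, and the whole 10000000-cell list 54.0%. Protein-coding genes themselves are divided almost evenly, with 49.0% on the minus strand and 47.7% of their summed length. The minus strand held over 50% of absent clusters on all 23 chromosomes, from 56.9% on chromosome 21 to 80.1% on chromosome 12, and more than of near clusters on 20 of them.

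This excess sat in the narrowest clusters. Of 2558 absent clusters of 3 nt, 2354 (92.0%, 90.9 to 93.0) lay on the minus strand, whereas near clusters of 3 nt had 63.4% there. For absent clusters wider than 3 nt the minus share was 62.7% (61.1 to 64.3), below the 69.4% of equally wide near clusters. Leaving out the 3-nt clusters therefore turns the order of the 2 sets.

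Width and strand moved together in the other lists as well. At 4 nt, absent clusters had 80.5% and near clusters 91.8% on the minus strand, and the clusters of the 10000-cell and 100000-cell lists without a 10000000-cell cluster had 84.6% and 85.7%. At 3 nt those 2 lists had 57.0% and 44.4%, RBFOX2 54.1%, and the SpyCatcher lists between 67.8% and 80.9%. The 92.0% at 3 nt was the highest of these 8 sets. The whole 10000000-cell list had 80.2% on the minus strand at 4 nt and 44.0% at 3 nt. The part that cluster calling has in the link of width and strand was not tested.

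**Figure D1:**
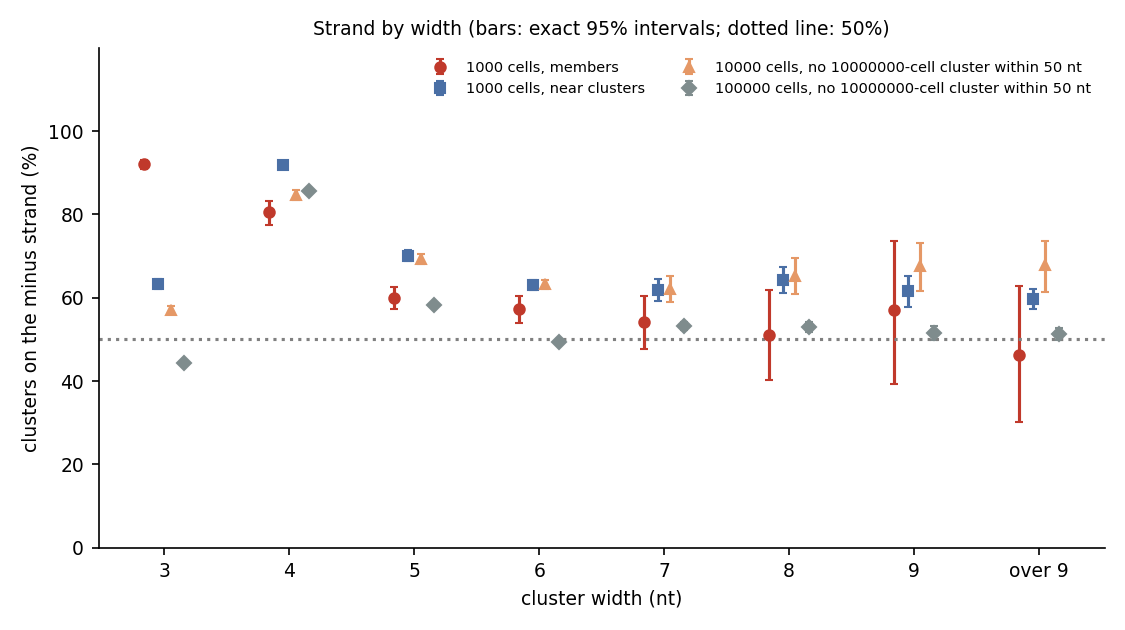
Percentage of clusters on the minus strand by cluster width (nt) for absent clusters ("members", red circles), near clusters (blue squares) and clusters of the 10000-cell (orange triangles) and 100000-cell (grey diamonds) lists without a 10000000-cell cluster within 50 nt; bars are exact 95% intervals. At 3 nt the absent clusters stand at 92.0% and the other sets between 44.4% and 63.4%, while from 4 nt on the absent clusters lie below the near clusters, with overlapping intervals from 7 nt.

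The 2354 minus-strand clusters of 3 nt, 39.0% of all absent clusters, differed from the remaining ones in further measures. Their median distance to a 10000000-cell cluster was 1674 nt, and 13.6% (12.2 to 15.0) were supported. The 204 plus-strand clusters of the same width lay at 552 nt and were supported in 40.2% (33.4 to 47.3). Wider absent clusters were supported in 27.8% on the minus strand (n = 2177) and 20.7% on the plus strand (n = 1294).

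These minus-strand clusters of 3 nt also lay less often in protein-coding genes, 78.9% against 87.9% to 91.2% in the other 3 classes of width and strand. Outside genes lay 7.26% of them, against 3.49% to 4.40%. Where the strand of the gene is known, 3.34% (2.54 to 4.29) were antisense, against 0 of 167 plus-strand clusters of 3 nt, 1.15% of wider minus-strand clusters and 1.22% of wider plus-strand clusters. The 0 of 167 allows a share of up to 2.18%.

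Over all absent clusters, 5126 (85.0%, 84.1 to 85.9) lay in protein-coding genes, against 92.4% of near clusters. Long noncoding genes held 446 (7.40%) against 4.02%, places outside genes 312 (5.17%) against 1.97%, and pseudogenes and other genes 83 (1.38%) against 0.796%. On the strand opposite to a gene, with no gene on their own, lay 56 (0.929%) against 0.334%. Absent clusters of the 10000-cell and 100000-cell lists had 92.1% and 92.5% in protein-coding genes, close to the 92.4% of near clusters. Among absent clusters wider than 3 nt the share was 88.8%, against 92.3% of equally wide near clusters.

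Read the other way, the absent clusters made up 18.2% of the 1000-cell clusters in protein-coding genes, 30.8% in long noncoding genes, 39.0% outside genes and 40.3% of those only antisense to a gene, beside 19.5% in all. Their support was 22.3%, 15.7%, 11.9% and 1.79% in these classes. Small RNA genes, such as those of spliceosomal, nucleolar and Y RNAs, held 6 absent clusters of 125 (4.80%).

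The 3′ ends of genes held few absent clusters. In protein-coding genes of known strand, 153 of 4981 (3.07%, 2.61 to 3.59) lay in the last 2000 nt before the 3′ end, against 3189 of 22758 near clusters (14.0%, 13.6 to 14.5). The last 2000 nt make up on average 3.95% of the genes that hold the absent clusters and 6.55% of those that hold near clusters. Near clusters were thus denser at the 3′ end than in the rest of the gene, and absent clusters were not. With 1 near cluster per locus, joined within 50 nt, their share was 10.8%. The first 2000 nt held 4.24% of absent and 6.86% of near clusters, close to the length share in each set.

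Clusters absent at 10000000 cells had low shares at the 3′ end in the other inputs too, 2.92% at 10000 and 1.52% at 100000 cells, against length shares of 3.59% and 2.60%. In the whole 10000000-cell list it was 7.71%, against a length share of 3.92%. Because the rule uses that list, a difference between absent and near clusters at the 3′ end can follow from the selection. Among supported absent clusters the share at the 3′ end was 1.35% (15 of 1112), and among absent clusters wider than 3 nt 2.41%. Minus-strand absent clusters of 3 nt had 4.34% (77 of 1775, 3.44 to 5.39), against 1.68% to 2.61% in the other 3 classes of width and strand. That interval includes the length share of all absent clusters, 3.95%. RefSeq spans were used without exons, so introns and untranslated regions could not be told apart.

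The share of absent clusters among 1000-cell clusters rose with gene length. In protein-coding genes it was 10.6% up to 20 kb and 21.7% at 100 to 200 kb. It reached 50.1% at 500 to 1000 kb and 59.0% (54.1 to 63.8) above 1000 kb. The median gene length was 109 kb for absent and 59.8 kb for near clusters. At 100000 cells their genes had medians of 101 and 235 clusters per 100 kb, and at 10000 cells 20.6 and 122. The rule leaves more clusters absent where 10000000-cell clusters are sparse, so gene length and cluster density cannot be told apart here. Among clusters wider than 3 nt the share went from 7.59% to 43.3%, and among those of 3 nt from 19.9% to 70.9%, between the shortest and the longest genes. Support of the absent clusters stayed between 21.8% and 24.0% up to 500 kb and was 15.5% and 18.1% in the 2 longest classes.

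**Figure D2:**
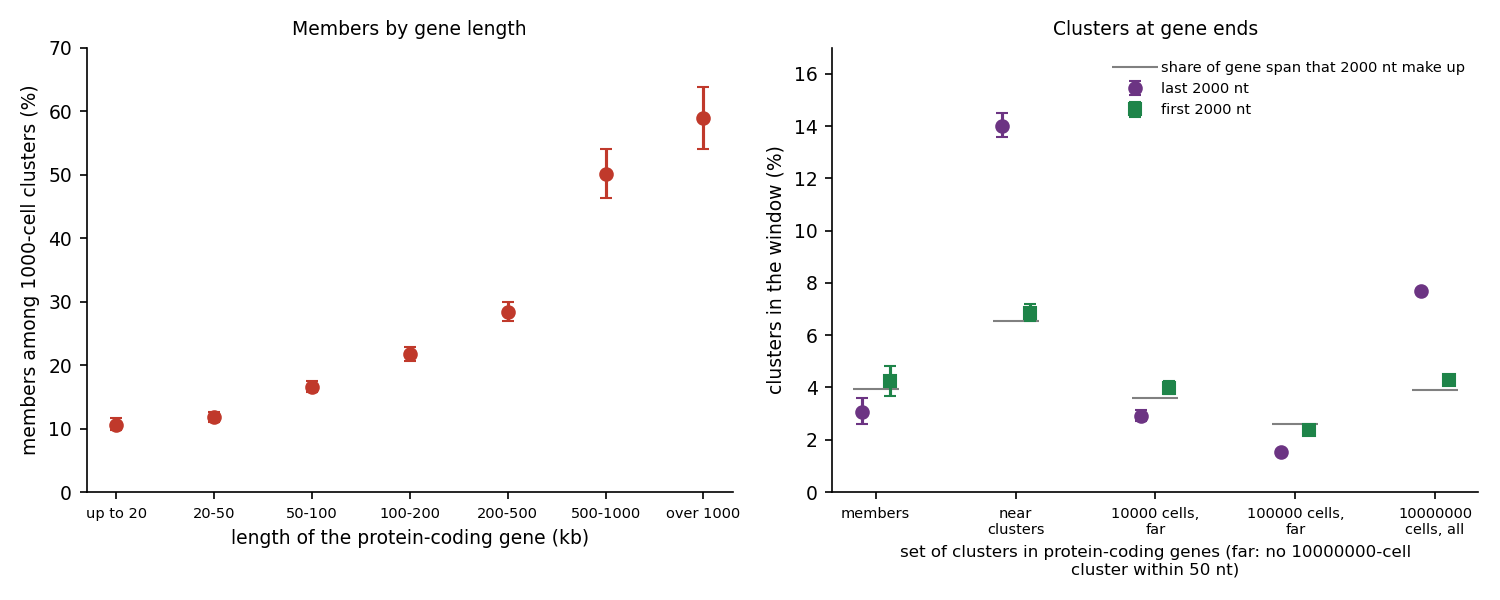
Left, percentage of absent clusters ("members") among 1000-cell clusters by length of the protein-coding gene (kb), from 10.6% to 59.0%; right, percentage of clusters in the last (purple) and first (green) 2000 nt of the gene for 5 sets, with grey lines for the average share of gene length in 2000 nt. Bars are exact 95% intervals; only near clusters (14.0%) and the whole 10000000-cell list (7.71%) exceed the grey line at the 3′ end.

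The absent clusters were scattered. Joined within 50 nt they formed 5996 loci, of which 5971 held 1 cluster, 23 held 2 and 2 held more, both in ZNF703. Of the near clusters, 38.3% shared a locus. Another cluster of the 1000-cell list lay within 1000 nt of 13.0% of absent and 66.4% of near clusters.

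They fell in 3500 genes, 51.1% of the 6844 genes with a 1000-cell cluster, and 2465 of these held exactly 1. The 20 genes with most of them held 335, or 5.56%. XIST, with 9, tied with the last of them and was left out by order of symbol. Of those 20 genes, 18 lie on the minus strand, LRP1B and EYA1 by inferred strand. Of protein-coding genes with RefSeq strand, 67.0% of those with an absent cluster and 59.6% of those with any 1000-cell cluster do. Among the 20, 11 are longer than 500 kb. Such genes held 11.3% of absent and 2.19% of near clusters in protein-coding genes. In the 20 genes 226 of the 335 absent clusters (67.5%) were 3 nt wide. Only 7 of the 20 were also among the 20 leading genes when clusters of 3 nt were left out.

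LRP1B, a giant endocytic receptor of the lipoprotein receptor family, led with 60 absent clusters of 78 at 1000 cells. Of the 60, 44 were 3 nt wide and 18 were supported. The gene, on the minus strand, spans chr2:140231423-142131016 and held 115 clusters at 10000 cells, 813 at 100000 and 252 at 10000000. The largest number was thus not at the highest input. The SpyCatcher lists held 40, 2, 64 and 63 there, so that 1.0 at 40 µg stood apart from the other three.

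PDE4D, which encodes a phosphodiesterase of cyclic AMP, had 31 absent clusters of 36, and 3 were supported. Its clusters numbered 32 at 10000 cells, 324 at 100000 and 211 at 10000000. DAB1, the adaptor through which the reelin signal enters neurons, had 26 of 35, with 2 supported, and 4, 133 and 138 clusters at the higher inputs. OMA1, a protease of the inner mitochondrial membrane that lies inside the span of DAB1 on the same strand, had 16 of 37. All 16 could belong to either gene.

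ZFHX3, a zinc finger and homeobox transcription factor, had 24 absent clusters of 43. The adhesion genes PCDH9, CDH12 and LSAMP had 18 of 21, 13 of 15 and 11 of 13, and MAGI2, a scaffold of cell junctions, had 16 of 19. In PCDH9, CDH12, LSAMP and MAGI2 few were supported, 1, 2, 0 and 0. The mitochondrial carrier SLC25A21 had 11 of 16 with none supported, and the secreted proteoglycan SPOCK3 had all 9 of 9 with none supported.

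Other leading genes held more near than absent clusters. EIF4G3, a scaffold of translation initiation, had 16 of 80, close to the 19.5% of the whole list, and 7 were supported. SLIT2, a secreted axon guidance ligand, had 10 of 140, and 8 were supported. The cohesin subunit STAG1 had 10 of 56, the striatin STRN3 9 of 37 and the vesicle trafficking gene LRBA 10 of 30, with 4, 4 and 5 supported. Of these 5 genes, SLIT2 and STAG1 lay below the 19.5% of the whole list and the others above it. EIF4G3 and STAG1 remained among the leading genes without clusters of 3 nt, with 14 and 9.

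Of 1671 genes with at least 5 clusters at 1000 cells, 105 had 50% or more absent, 9 had all absent and 634 had none. Besides ZNF703 and SPOCK3, the 9 included SCN9A (8 clusters), CCDC148 and MTUS1 (6 each), and EBF1 and SCOC-AS1 (5 each). SCN9A encodes a sodium channel of sensory neurons and had 41 clusters at 100000 cells against 7 at 10000000, with 3 of its 8 supported. MTUS1, which encodes a microtubule-associated protein, went the other way, with 12 clusters at 100000 and 24 at 10000000.

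In 381 genes the 10000000-cell list had no cluster on the strand of the absent clusters, and these genes held 441 of them, 55 supported. In 342 of these genes it was a single cluster, and 91 had a cluster at 100000 cells. CCDC148 had 6, EYS, a matrix protein of photoreceptors, had 4, and the GTPase activator ARHGAP6 and the cadherin CDH18 had 3 each. In these 4 genes none was supported.

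ZNF703, a zinc finger corepressor of transcription, had most absent clusters among these genes. It held 14 clusters at 1000 cells, all absent from the 10000000-cell list and all supported. The 100000-cell list had 24 clusters there, RBFOX2 20, and the SpyCatcher lists 7, 11, 9 and 7, whereas the 10000-cell and the 10000000-cell lists had 0. Within 100000 nt on either side, on the same strand, the 10000000-cell list had 39 clusters and the 10000-cell list 9. The 14 clusters formed 4 loci in this gene of 4238 nt, one with 8 clusters in 153 nt and one with 4 in 116 nt. It also held the widest absent cluster, of 26 nt.

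NEAT1, the long noncoding RNA that builds paraspeckles, gave a like picture with fewer clusters. It had 2 at 1000 cells, both absent at 10000000 cells and both supported, at 65423649 to 65423653 and 65423697 to 65423702 of chromosome 11. RBFOX2 had 14 clusters in the gene and the SpyCatcher lists 9, 10, 10 and 16, while PTBP1 had 1 at 10000 cells and 0 at 100000 and 10000000. The flanks of 100000 nt held 148 clusters of the 10000000-cell list on that strand. In both ZNF703 and NEAT1 the 10000000-cell list thus had no cluster in the gene but held clusters beside it.

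All 7 lists supported 3 absent clusters. One lies in PVT1, a long noncoding RNA, 69 nt from a 10000000-cell cluster. That in KLK8, a secreted serine protease of the kallikrein family, at chr19:50996169-50996174 on the minus strand, shared bases with a cluster in each of the 7 lists and lay 952 nt from the nearest at 10000000 cells. The cluster in BEX5, chrX:102155114-102155117 on the minus strand, also shared bases with a cluster in all 7, and the nearest at 10000000 cells was 225544 nt away.

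Exactly 6 lists supported 2513 near clusters (10.1%) and another 20 absent clusters (0.332%), and 8 of these 20 lie in ZNF703. RELN, which encodes the secreted ligand reelin, had a cluster at chr7:103989387-103989390 that shared bases with a cluster of the 100000-cell, the 10000-cell and each SpyCatcher list, lay 137082 nt from the nearest 10000000-cell cluster, and was not supported by RBFOX2. The Arf GTPase activator ADAP1 had 3, at 94, 321 and 659 nt, that only the 10000-cell list lacked. The remaining 8 were single clusters in DHX57, RN7SKP232, LOC107984041, SAR1A, SHTN1, ZNF652, ODAD3 and XIST.

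A distance above 10000 nt from the 10000000-cell list together with support in at least 2 lists was found for 44 absent clusters. ZNF703 held 14, and the other 30 were divided into 13 in protein-coding genes, 7 in long noncoding genes, 6 outside genes and the rest in other classes. Of these 30, 22 lay on the minus strand and 11 were 3 nt wide. They included HASPIN, a histone kinase, and SCHLAP1, a long noncoding RNA.

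Genes with most absent clusters supported by at least 2 other PTBP1 or SpyCatcher lists were, after ZNF703 with 14, SLIT2 and IRS4 with 5 each and XIST with 4. IRS4, an adaptor of insulin and growth factor receptors, had 7 absent of 94 clusters, and the 10000-cell list had more clusters in it (134) than the 100000-cell (112) and 10000000-cell lists (109). XIST, the RNA that silences an X chromosome, had 9 of 132. EIF4G3, the actin regulator ENAH, the kinetochore protein CENPK, the mRNA export factor THOC2, ZNF652, ADAP1, HBS1L, C16orf74 and HNRNPC, which binds uridine tracts, had 3 each.

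Of the 7 gene lists, 5 had a share of absent clusters with an interval below the 19.5% of the whole list. Those of RBFOX2 and of small structured RNAs had intervals that include it. These intervals treat clusters as independent, although many share a gene, and PTBP2 alone holds 66 of the 171 clusters in genes linked to PTBP1. The gene lists were chosen with earlier results known. The rule also leaves fewer clusters absent where clusters of the largest PTBP1 list are dense. Whether a low share belongs to the kind of gene was not tested. Of 25 genes with splicing events linked to PTBP1, 17 had a 1000-cell cluster and 8 an absent one, 10 of 171 clusters (5.85%, 2.84 to 10.5). PTBP2, the neuronal paralog, had 3 of 66 and PTBP3 1 of 3. DLG4, whose neuronal exon PTBP1 represses, had the 1 of 11 shown above. MEF2C, TNRC6A and TPM3 had 1 each.

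Genes linked to RBFOX2 held 50 of 322 (15.5%, 11.8 to 20.0), of which 20 were supported. EIF4G3 with 16, and ENAH and PICALM, a clathrin assembly protein, with 7 each, made up the larger part of these. EPB41 had 3 of 15, and ECT2, KIF21A and MBNL1 had 2 each. The interval of this list reaches 20.0% and so includes the share of the whole list.

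Splicing factors that control their own RNA held 15 of 336 (4.46%), with HNRNPC at 5 of 35 and SRSF11 and TIAL1 at 2 each. Abundant transcripts held 4 of 162 (2.47%), of which YWHAZ had 3, all supported. Ribosomal protein genes held 6 of 72 (8.33%), among them 1 each in RPL35, RPL35A, RPL41, RPL9 and RPS29, and 1 was supported.

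Long noncoding RNAs of the list held 18 of 222 (8.11%, 4.88 to 12.5). FTX and JPX, which lie beside XIST, had 7 of 106 and 4 of 96, PVT1 all 3 of 3, and GAS5 and OIP5-AS1 1 each, besides the 2 of NEAT1. Small structured RNAs held 3 of 31 (9.68%, 2.04 to 25.8). RNU5A-1 and RNU5B-1, copies of the U5 spliceosomal RNA, and RNY5, a Y RNA, had 1 cluster each, none of them at 10000000 cells. Of these, the RNY5 cluster was supported, by SpyCatcher 2.0 at 20 µg. U5 and Y RNAs have near-identical copies between which reads may be divided, so the place of these 3 is uncertain.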

How the data were processed

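Members and gene lists were chosen with earlier results of these data known. The deposited lists (BED files, 1 per group, tied to the first library of each group) hold positions and strand only, as the deposited columns show, with dots for name and score. Reads were processed with Trim Galore 0.0.6 and STAR 2.7.9a on hg38, per the submitters' processing notes. Which caller and thresholds made the clusters, and whether libraries were pooled, is not given in the sources used here. Lists of 2 groups with a further guide were left out.

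Distances were computed on each strand with Python 3.11.15 (numpy 2.4.6, scipy 1.17.1, pandas 2.3.3) and gene overlaps with bedtools 2.31.1. Starts are given from 1. A cluster went to the RefSeq gene (GRCh38.p14) that covers its midpoint on its own strand or whose strand is unknown, small RNA genes first, then protein-coding, long noncoding and other genes, then the shortest. Strand came from RefSeq promoter or miRNA tables for 29079 of 59679 genes. For 2029 more it was inferred from at least 3 clusters of the 10000000-cell list in no other gene, 90% of them on 1 strand. The 2 sources gave the same strand for 98.7% of 8649 genes with both. All 2993 pairs of promoter windows that overlap on opposite strands were reverse complements.

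Named genes were, with ties by symbol, the 20 with most absent clusters, up to 10 with at least 5 clusters and the highest share absent, the 10 leading genes without 10000000-cell clusters, the 10 with most members supported in at least 2 PTBP1 or SpyCatcher lists, up to 8 per gene list, and the 10 loci, widest and best supported clusters. HASPIN and SCHLAP1, the 44 distant supported clusters and the 9 printed promoter stretches were chosen after their values were seen. Some genes that the rule names are not reported here. The distance, locus and gene code was tested on simulated data, with 0 wrong answers in 4000 distances, 2000 loci, 365 gene strands and 4000 gene assignments.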

Additional observations from a re-analysis of the deposited data

How the results depend on the processing

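Of 40 alternatives, 21 moved the value by less than its counting interval or, for counts, by less than 1.5 times. With 1000 nt in place of 50 nt the number of absent clusters was 2866. Their support in other lists (21.1%) was 16.6% and 11.7% for clusters with none within 200 and 1000 nt, 9.95% by shared bases, 35.7% within 200 nt, 11.1% without the 100000-cell list and 25.2% for clusters wider than 3 nt. The minus share (75.2%) was 73.9% in protein-coding genes with strand inferred from the 100000-cell list, 62.7% above 3 nt and 72.5% for supported clusters. The share in protein-coding genes (85.0%) was 83.7% and 78.2% with none within 200 and 1000 nt, 88.8% above 3 nt and 89.8% if supported. The share in the last 2000 nt (3.07%) was 1.39% for a window of 1000 nt, 7.11% for one of 5000 nt, 2.41% above 3 nt and 1.35% if supported. Genes with absent clusters (3500) numbered 928 with supported clusters alone. Alternatives by width above 3 nt, by support, without the 100000-cell list and joining within 1000 nt were chosen after seeing the data.

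No paired analysis was possible because each group has 1 list and no result comes from a test. Motifs at all absent clusters were not run, since no genome sequence was used, and the promoter windows took their place. Whether and how far depth limits these lists could not be examined, because a cluster carries no read number.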
